A study of Homo sapiens with 15 samples.

Results

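The genes described here encode enzymes that break down the branched-chain amino acids leucine, isoleucine and valine. They were taken by symbol from a table of transcript levels in human TF-1 cells, and they are 10 of the 56624 gene symbols in it: BCAT1, BCAT2, BCKDHA, BCKDHB, DBT, HIBCH, HIBADH, ACADSB, MCCC1 and MCCC2. TF-1 is an erythroleukaemia line that depends on cytokines such as GM-CSF. Poly(A) RNA of 15 libraries was sequenced in 5 groups of 3. The series set out to find how the transcriptome changes with IDH mutations made by base editing. The groups were TF-1 cells base-edited to IDH1R132H, to IDH2R140Q, to IDH2R140W and to IDH2R172K, all grown without GM-CSF, and unedited Parental TF-1 cells grown with 2 ng/ml GM-CSF. All groups shared RPMI-1640 medium with 10% FBS. An effect of genotype and one of GM-CSF cannot be told apart against Parental, but the edited lines can be set against each other in 1 medium. Whether an edited line was 1 clone, and whether its libraries are separate cultures, is not in the labels. The p-values here therefore rest on library-to-library spread alone, possibly technical.

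Breakdown of the branched-chain amino acids begins in the same way for all of them. A transaminase, BCAT1 in the cytosol or BCAT2 in the mitochondrion, moves the amino group to 2-oxoglutarate, which yields glutamate and a branched-chain keto acid. The branched-chain keto acid dehydrogenase complex then makes the step irreversible in the mitochondrion, after which leucine, isoleucine and valine follow routes of their own to acetyl-CoA, acetoacetate or propionyl-CoA. Mutant IDH enzymes make 2-hydroxyglutarate from 2-oxoglutarate, and 2-hydroxyglutarate has been shown to inhibit the transaminases. BCAT1 is also known from acute myeloid leukaemia, where it lowers 2-oxoglutarate.

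Levels are in TPM, which corrects for transcript length and scales each library to the same total, so that levels of different genes can be set side by side. TPM keeps no read number, and the depth of the libraries and the counting error are unknown. All 10 genes were among the 14881 tested. Their lowest value in any library was 2.49 TPM, above the minimum of 1 TPM in 3 libraries, so that minimum removed none of them. Differences are of log2(TPM + 1), edited line minus Parental unless other groups are named, from limma fitted over all tested genes and all 15 libraries. The added 1 TPM makes changes of weakly expressed genes look smaller. A gene passed where its Benjamini-Hochberg adjusted p over all tested genes was under 0.05. In bulk RNA, fewer cells with a transcript and less of it per cell cannot be told apart.

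Between 12796 and 13792 symbols reached 1 TPM in a library, and the nearest neighbour of each of the 15 libraries was a library of the same group. Parental replicate 2 and IDH2R140W replicate 3 stood apart. The summed share of 89 ribosomal protein genes was 21.9% in IDH2R140W replicate 3, against 18.1% and 18.4% in the other IDH2R140W libraries, and 21.0% in Parental replicate 2, against 16.7% and 17.7% in the other Parental libraries. The 10 genes summed to 289 TPM in IDH2R140W replicate 3 and to 355 in each of its mates. In Parental they summed to 365 TPM in replicate 2, against 427 and 400 in replicates 1 and 3. Values without these libraries are given where they decide a call, and their part in the results was not tested. Of the markers chosen for TF-1, CD34, CD33, KIT, TAL1, EPOR and CSF2RB were present in every library, while GATA1, CSF2RA and IL3RA, each on 2 rows of the table, were listed at 0 in all. A listed 0 can be a failed estimate, so these zeros do not show that the genes were off. Among markers of other cell types, the T cell gene CD3D averaged 32.0 TPM (IDH1R132H), 2.04 (IDH2R140Q), 9.09 (IDH2R140W) and 52.7 (IDH2R172K), against 68.4 TPM in Parental, and the epithelial gene KRT8 137, 82.3, 90.6 and 103 TPM in the same lines, against 102 TPM in Parental. The part of these markers in the results was not tested. Of the other markers of these cell types, CD3E, EPCAM, KRT5, COL1A2 and PDGFRB did not exceed 0.55 TPM. CD2 and COL1A1 did not exceed 1 TPM, and the B cell genes MS4A1 and CD79A were listed at 0.

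In IDH1R132H cells, 4 of the 10 genes were lower than in Parental and 1 was higher, whereas 13.7% and 30.1% of all tested genes were lower and higher. The genes that fell were BCAT2, BCKDHB, HIBADH and MCCC2, and BCAT1 rose. In IDH2R172K cells 5 genes fell (BCAT2, BCKDHA, BCKDHB, HIBCH and HIBADH) and none rose, against 13.5% lower and 25.5% higher among all genes. Without IDH2R172K replicate 2, or without replicate 3, only 3 of them passed. In IDH2R140W cells 3 fell (BCAT2, HIBADH and MCCC1) and none rose, against 10.7% and 13.3%. In IDH2R140Q cells 2 fell (BCAT2 and BCKDHA) and none rose, against 11.1% and 33.3%. BCAT2 was the only one of the 10 to pass in all 4 lines, and DBT and ACADSB passed in none. These comparisons share the Parental libraries. At least a 2-fold difference was reached by BCAT2 and HIBADH in IDH1R132H, both lower, where 3.09% of all genes were at least 2-fold lower.

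The median of the 10 log2 differences was −0.30 (IDH1R132H), 0.08 (IDH2R140Q), −0.19 (IDH2R140W) and −0.31 (IDH2R172K). The median of all tested genes was 0.16, 0.23, 0.03 and 0.13 in the same lines, so a difference of 0 lies below the typical gene. After median-ratio scaling, which brings the median of all genes to between 0 and 0.02 in these 4 comparisons, the split of all genes moved to 22.9% higher and 20.5% lower in IDH1R132H, 20.9% and 19.4% in IDH2R140Q, 13.1% and 12.8% in IDH2R140W and 19.7% and 19% in IDH2R172K. Of the 10 genes, 6, 3, 3 and 6 then passed as lower in those lines, and 0 passed as higher in any. For the mean of the 4 edited lines against Parental, 4 genes were lower (BCAT2, BCKDHA, BCKDHB and HIBADH) and none higher, against 12.7% and 30.2% of all genes, and 7 were lower after that scaling, where 20.3% and 21.7% of all genes were lower and higher. Without Parental replicate 3 only BCAT2 and HIBADH passed as lower for that mean: BCKDHA was lost without Parental replicate 1 or 3 (limma adjusted p = 0.0923 and 0.0751), and BCKDHB without Parental replicate 2 or 3 (0.115 and 0.0638).

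**Figure D1:**
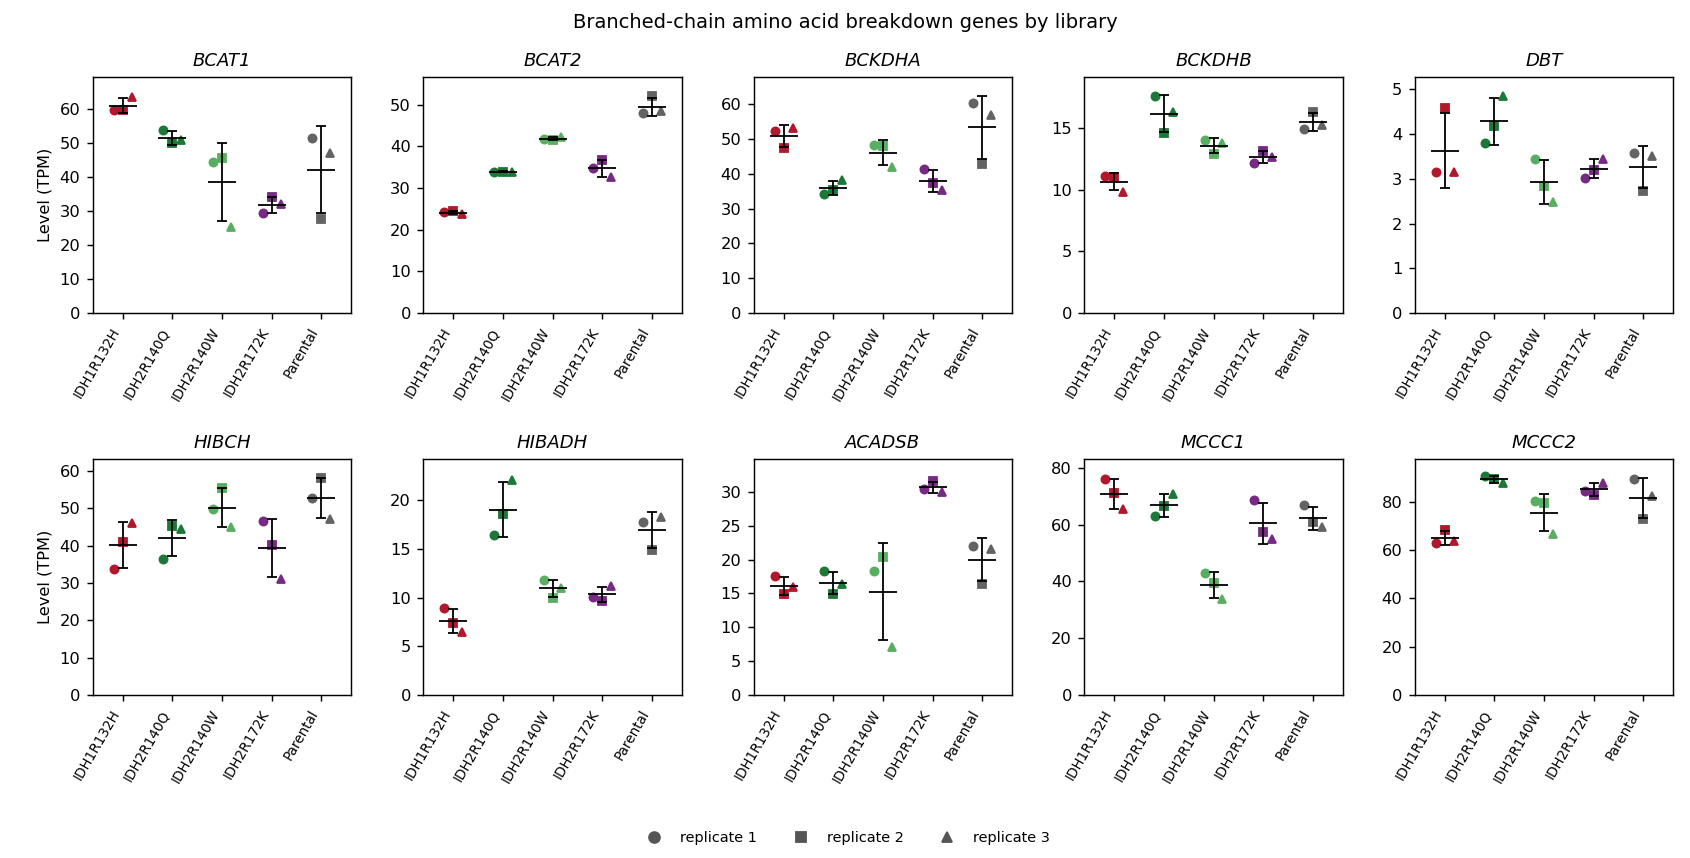
Level of each of the 10 genes in TPM (vertical axis, from 0) in the 3 libraries of each group, with marker shape giving the replicate and the bar and whiskers the mean and SD. BCAT2 was 23.7 to 24.5 TPM in IDH1R132H and 48.1 to 52.0 TPM in Parental, and the low triangle of ACADSB at 7.14 TPM and the low square of BCAT1 at 27.6 TPM are IDH2R140W replicate 3 and Parental replicate 2.

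**Figure D2:**
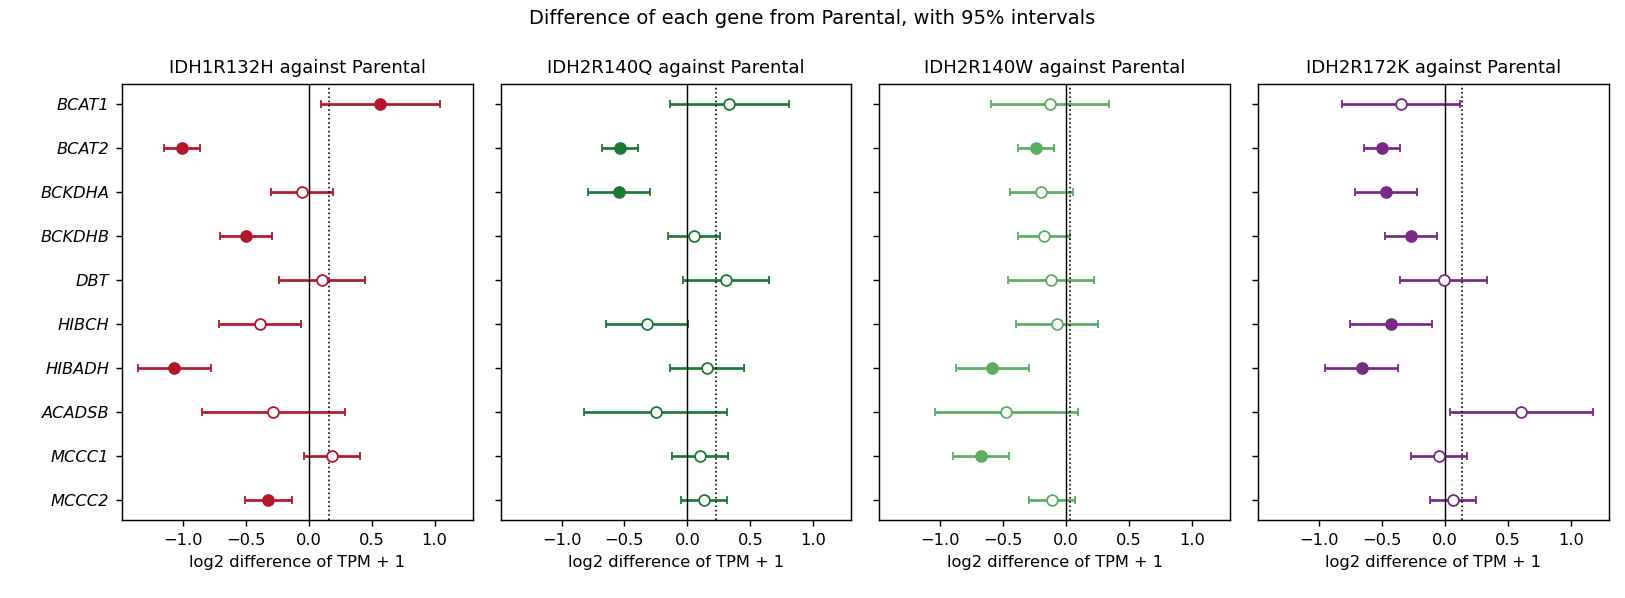
Log2 difference of TPM + 1 between each edited line and Parental (horizontal axis) for each of the 10 genes, with 95% intervals from limma. Filled points passed at an adjusted p under 0.05, the solid line marks 0 and the dotted line the median of all 14881 tested genes. BCAT2 lies left of 0 in all 4 panels, at −1.01 in IDH1R132H and −0.24 in IDH2R140W.

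In IDH1R132H cells the mitochondrial transaminase passed as lower and the cytosolic one, narrowly, as higher. BCAT2, the mitochondrial enzyme (ENSG00000105552, hg38 chromosome 19, 48795062 to 48811029, minus strand), was 24.2, 24.5 and 23.7 TPM in IDH1R132H, 34.0, 33.8 and 34.0 in IDH2R140Q, 41.8, 41.5 and 42.2 in IDH2R140W and 34.8, 36.7 and 32.7 in IDH2R172K, against 48.1, 52.0 and 48.5 TPM in Parental. Every library of every edited line lay below every Parental library, and replicates lay close together, with an SD of 0.110 to 2.13 TPM. BCAT2 fell by 1.01 on the log2 scale in IDH1R132H (SE 0.0666, limma adjusted p = 4.18e-08), by 0.53 in IDH2R140Q (2.40e-05), by 0.50 in IDH2R172K (4.16e-05) and by 0.24 in IDH2R140W (0.0178). Relative to the median gene the differences were −1.17, −0.76, −0.63 and −0.27. The IDH2R140W difference no longer passed without IDH2R140W replicate 2 (−0.23, limma adjusted p = 0.0551). Nor did it pass after quantile normalisation (−0.24, limma adjusted p = 0.0540) or with only the compared groups in the fit (−0.24, 0.148). The IDH1R132H difference was just under 2-fold without Parental replicate 2 (−0.97) or IDH1R132H replicate 3 (−0.995). BCAT2 lies among many expressed genes, and 95 of the 96 tested protein-coding genes within 2 Mb had a higher log2 difference than BCAT2 in IDH1R132H and in IDH2R172K, 87 of them in IDH2R140Q and 78 of them in IDH2R140W.

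Among the edited lines, which shared their medium, the order of BCAT2 levels was IDH1R132H, IDH2R140Q, IDH2R172K and IDH2R140W, from low to high. The ranges of IDH2R140Q and IDH2R172K overlapped, and no other neighbours in that order did. IDH1R132H was lower than IDH2R140Q by a log2 difference of −0.475 (limma adjusted p = 0.000106), than IDH2R140W by −0.77 (7.59e-07) and than IDH2R172K by −0.51 (4.77e-05). Against the mean of the 3 IDH2 lines the difference was −0.58 (SE 0.0543, limma adjusted p = 1.91e-06).

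BCAT1, the cytosolic enzyme (ENSG00000060982, hg38 chromosome 12, 24810022 to 24949459, minus strand), was 59.5, 59.6 and 63.4 TPM in IDH1R132H, 53.8, 49.9 and 50.9 in IDH2R140Q, 44.5, 45.5 and 25.2 in IDH2R140W and 29.3, 34.0 and 32.0 in IDH2R172K, against 51.5, 27.6 and 47.1 TPM in Parental. The 3 IDH1R132H libraries were above all others. Parental spread from 27.6 to 51.5 TPM, and its range overlapped those of the 3 IDH2 lines. The low Parental value and the low IDH2R140W value came from the libraries with the high ribosomal share. In IDH1R132H BCAT1 rose by 0.57 (SE 0.219, limma adjusted p = 0.0489), or 0.41 relative to the median gene, a call lost under 11 of 17 alternatives, with adjusted p between 0.00395 and 0.228. Without Parental replicate 2 the difference was 0.30 (limma adjusted p = 0.228), and leaving out any of the IDH1R132H libraries gave adjusted p of 0.0904 to 0.115. BCAT1 in IDH2R172K differed from Parental by −0.35 (limma adjusted p = 0.224), and by −0.62 without Parental replicate 2, where it passed (0.0186). With all libraries it passed as lower after median-ratio scaling (−0.49, limma adjusted p = 0.0331) and after quantile normalisation (−0.48, 0.0304). IDH2R140Q differed by 0.33 (95% interval −0.14 to 0.80) and IDH2R140W by −0.13 (−0.60 to 0.34), and neither passed. Without Parental replicate 2 the IDH2R140Q difference was 0.062 (limma adjusted p = 0.821). The 6 tested protein-coding genes within 2 Mb of BCAT1 had a median log2 difference from Parental of 0.60 in IDH1R132H and 0.50 in IDH2R140Q. In IDH2R140W and IDH2R172K their median was −0.08 and 0.29. Of these 6 genes, 3 (IDH1R132H), 4 (IDH2R140Q), 4 (IDH2R140W) and 5 (IDH2R172K) had a higher difference than BCAT1.

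Between edited lines, BCAT1 was higher in IDH1R132H than in IDH2R172K by 0.92 (SE 0.219, limma adjusted p = 0.00513) under each of 17 alternatives. It was higher in IDH1R132H than in IDH2R140W by 0.70 (0.0234), which was 0.43 and did not pass without IDH2R140W replicate 3 (limma adjusted p = 0.104). The BCAT1 difference between IDH1R132H and IDH2R140Q did not pass. IDH1R132H exceeded the mean of the 3 IDH2 lines by 0.62 (limma adjusted p = 0.0163), a call lost without any 1 of the IDH1R132H libraries (0.0510 to 0.0674). Without IDH2R140W replicate 3 the difference was 0.53 and passed (limma adjusted p = 0.00958). Over 23 alternatives its limma adjusted p was 5.12e-06 to 0.0674.

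Promoter sequences were looked up in RefSeq (GRCh38.p14), which gives 250 bases before each transcript start and a short stretch after it, and 8 of the 10 genes are in that table (BCAT2 and HIBADH are not). The letters were searched on both strands for CACGTG (the E-box), TGATGNAA (the C/EBP-ATF element, a composite site known from amino acid stress signalling) and CCAAT. Of 35116 promoters of the same length, 7.26% held CACGTG, 3.62% held TGATGNAA and 34.6% held CCAAT. These shares are per promoter, whereas BCAT1 was searched at 5 listed starts, MCCC1 at 3 and each other gene at 1. BCAT1 was the only one of the 8 genes with TGATGNAA. The site lies before the first of 5 listed starts, within sequence that GENCODE annotates as exon of BCAT1, and it is shown in capitals, 5′ to 3′ on the minus strand, chr12:24949131-24949160, because no other of these promoters held it.
BCAT1: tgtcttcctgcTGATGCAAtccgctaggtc
A match is a description of the letters and not evidence of binding.

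The ratio of the transaminases within a library is the same under any scaling factor of that library. BCAT1 TPM over BCAT2 TPM was 2.44 to 2.68 in the IDH1R132H libraries (mean 2.52 ± 0.134), 1.48 to 1.58 in IDH2R140Q (1.52 ± 0.0569), 0.597 to 1.10 in IDH2R140W (0.919 ± 0.280) and 0.843 to 0.978 in IDH2R172K (0.916 ± 0.0680), against 0.531 to 1.07 in Parental (0.858 ± 0.287, SD, n = 3 each). Transcripts of the cytosolic enzyme thus outnumbered those of the mitochondrial one in every IDH1R132H and IDH2R140Q library, with no overlap with Parental. By geometric means rather than the means above, the ratio was 3.07-fold higher in IDH1R132H and 1.85-fold higher in IDH2R140Q. Each had the exact two-sided permutation p = 0.1, the smallest that 3 libraries against 3 can give. Without Parental replicate 2 the log2 differences of the ratio were 1.31 and 0.57, against 1.62 and 0.89 with it. For IDH2R140W and IDH2R172K the folds were 1.08 and 1.11 (exact two-sided permutation p = 0.6 and 0.9).

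**Figure D3:**
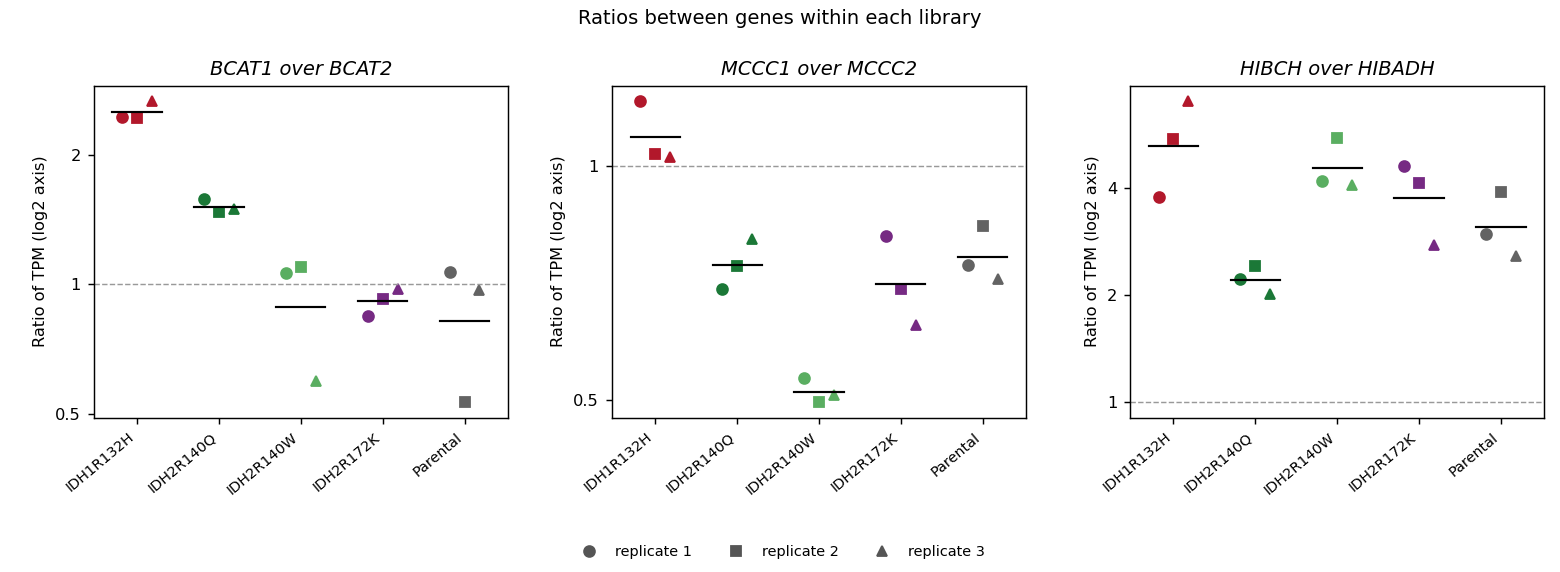
Ratios of TPM between pairs of genes within each library (vertical axis, log2 spacing) in the 5 groups, with marker shape giving the replicate, the bar the geometric mean and the dashed line a ratio of 1. BCAT1 over BCAT2 is above 1 in all IDH1R132H and IDH2R140Q libraries, and MCCC1 over MCCC2 is lowest in IDH2R140W, at 0.496 to 0.533.

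Subunits of the branched-chain keto acid dehydrogenase complex differed in which lines they were lower. BCKDHA and BCKDHB encode the alpha and beta chains of the E1 decarboxylase, DBT the E2 transacylase core, and DLD, which was not among the 10, the E3 dehydrogenase that pyruvate and 2-oxoglutarate dehydrogenase also use. BCKDHA (ENSG00000248098, hg38 chromosome 19, 41397460 to 41425005, plus strand) was 52.3, 47.5 and 53.3 TPM in IDH1R132H, 34.3, 35.4 and 38.2 in IDH2R140Q, 48.2, 48.1 and 42.0 in IDH2R140W and 41.4, 37.3 and 35.3 in IDH2R172K, against 60.3, 43.0 and 56.9 TPM in Parental. The IDH2R140Q and IDH2R172K libraries all lay below Parental, while IDH1R132H and IDH2R140W overlapped it. BCKDHA fell by 0.54 in IDH2R140Q (SE 0.115, limma adjusted p = 0.00177) and by 0.47 in IDH2R172K (0.00537). In IDH1R132H the difference was −0.05 (95% interval −0.30 to 0.20) and in IDH2R140W −0.20 (−0.44 to 0.05), which was −0.34 without Parental replicate 2 and then passed (limma adjusted p = 0.0160). After median-ratio scaling the IDH1R132H difference was −0.23 and passed (limma adjusted p = 0.0448). BCKDHA shares exon sequence with EXOSC5 on the opposite strand, which was 55.3 to 87.9 TPM, and with AC011462.1 on its own strand. The strand setting of the counting is not given in the sources used here, so reads of the overlap may have been assigned to either gene. Antisense genes also overlap exons of BCAT1, DBT and MCCC1, of which MCCC1-AS1 did not exceed 0.38 TPM.

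BCKDHB (ENSG00000083123, hg38 chromosome 6, 80106647 to 80346270, plus strand) was 11.2, 11.01 and 9.86 TPM in IDH1R132H, 17.6, 14.6 and 16.3 in IDH2R140Q, 14.1, 12.9 and 13.8 in IDH2R140W and 12.2, 13.2 and 12.7 in IDH2R172K, against 14.96, 16.3 and 15.2 TPM in Parental. It was lowest in IDH1R132H, where no library reached the lowest of any other group. BCKDHB fell by 0.50 in IDH1R132H (SE 0.0955, limma adjusted p = 0.000753). It fell by 0.27 in IDH2R172K (0.0369), a call lost under 8 of 17 alternatives, among them leaving out Parental replicate 2 (−0.24, limma adjusted p = 0.0985), Parental replicate 3 and each IDH2R172K library. IDH1R132H was also lower than IDH2R140Q, by −0.55 (limma adjusted p = 0.000572), while IDH2R140Q differed from Parental by 0.05, or −0.18 after median-ratio scaling, and did not pass.

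DBT (ENSG00000137992, chromosome 1, 100186919 to 100249834, minus strand), the least abundant of the 10, ranged from 2.49 to 4.85 TPM over the 15 libraries. Its highest mean was 4.28 ± 0.527 TPM in IDH2R140Q and its lowest 2.92 ± 0.487 TPM in IDH2R140W, against 3.27 ± 0.475 in Parental, and all neighbouring groups overlapped. No comparison with Parental passed, with differences from −0.12 to 0.31. The ratio of BCKDHA to BCKDHB transcripts averaged 4.80 (IDH1R132H), 2.24 (IDH2R140Q), 3.40 (IDH2R140W) and 3.01 (IDH2R172K), against 3.47 in Parental, so the E1 chains were most unequal in IDH1R132H and least in IDH2R140Q. The sequences before the starts of BCKDHB (chr6:80106421-80106646, plus strand) and DBT (chr1:100249835-100250084, minus strand) are shown, without annotated exon, since both genes encode parts of the complex and their promoters held CCAAT. Capitals mark CCAAT or ATTGG, its reverse strand.
BCKDHB: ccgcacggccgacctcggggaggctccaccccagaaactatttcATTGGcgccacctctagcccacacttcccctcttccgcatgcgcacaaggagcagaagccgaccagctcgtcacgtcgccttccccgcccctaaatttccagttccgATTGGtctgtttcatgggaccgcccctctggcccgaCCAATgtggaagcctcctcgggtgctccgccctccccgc
DBT: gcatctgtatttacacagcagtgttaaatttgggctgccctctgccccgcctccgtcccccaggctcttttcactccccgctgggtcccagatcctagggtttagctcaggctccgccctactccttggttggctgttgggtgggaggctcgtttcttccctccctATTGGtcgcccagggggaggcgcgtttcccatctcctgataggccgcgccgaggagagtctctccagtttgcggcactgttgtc
BCKDHB held CCAAT 3 times and DBT 1 time. BCKDHA held it 1 time as well.

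DLD showed the widest gap of the complex in IDH1R132H. It was 59.9, 64.8 and 66.5 TPM in IDH1R132H and averaged 152 ± 9.47 TPM in IDH2R140Q, 131 ± 7.45 in IDH2R140W and 148 ± 3.54 in IDH2R172K, against 141, 124 and 131 TPM in Parental. All IDH1R132H libraries lay far below every library of the other groups. DLD fell by 1.04 in IDH1R132H (SE 0.0707, limma adjusted p = 5.56e-08), and its difference from the mean of the 3 IDH2 lines was −1.16 (limma adjusted p = 4.54e-09). The fall was −0.99 without Parental replicate 1 or without IDH1R132H replicate 1. In IDH2R140Q DLD passed as higher, by 0.20 (limma adjusted p = 0.0324), but that call was lost under 10 of 17 alternatives, among them without Parental replicate 2 (0.16, 0.104) or IDH2R140Q replicate 3 (0.15, 0.138), and the difference turned to −0.04 after median-ratio scaling. BCKDK, the kinase that inactivates the complex, averaged 49.3 ± 1.77 TPM in IDH1R132H and 49.0 ± 4.70 in IDH2R140Q, against 60.4 ± 6.11 in Parental, and fell by 0.28 (limma adjusted p = 0.0227) and 0.30 (0.0181). Both calls were lost without Parental replicate 1 or 3 (limma adjusted p = 0.0542 to 0.0893), the IDH1R132H one also without IDH1R132H replicate 1 or 2 and the IDH2R140Q one without IDH2R140Q replicate 3. PPM1K, the phosphatase that activates it, was 3.34 to 8.24 TPM over all libraries and passed in no line.

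In valine breakdown, HIBADH had the widest spread of the 10 genes, with its highest group mean 2.51-fold above its lowest, against 1.34-fold for HIBCH. HIBCH hydrolyses 3-hydroxyisobutyryl-CoA, and HIBADH, the 3-hydroxyisobutyrate dehydrogenase, takes the next step. HIBADH (ENSG00000106049, hg38 chromosome 7, 27525442 to 27662995, minus strand) was 8.90, 7.42 and 6.51 TPM in IDH1R132H, 16.4, 18.7 and 22.1 in IDH2R140Q, 11.8, 9.99 and 11.03 in IDH2R140W and 10.1, 9.71 and 11.2 in IDH2R172K, against 17.8, 14.9 and 18.3 TPM in Parental. IDH1R132H, IDH2R140W and IDH2R172K lay wholly below Parental, and IDH2R140Q overlapped it. HIBADH fell by 1.07 in IDH1R132H (SE 0.136, limma adjusted p = 2.44e-05), by 0.66 in IDH2R172K (0.00153) and by 0.59 in IDH2R140W (0.00582). The IDH2R140Q difference was 0.15 (95% interval −0.14 to 0.45), and −0.08 after median-ratio scaling. Without IDH1R132H replicate 3 the difference in that line was −0.97, just under 2-fold. Between edited lines, IDH1R132H was lower than IDH2R140Q by −1.22 (limma adjusted p = 1.38e-05), and IDH2R140Q exceeded IDH2R140W by 0.74 (0.000926) and IDH2R172K by 0.82 (0.000363), each under all 17 alternatives. The 21 tested protein-coding genes within 2 Mb of HIBADH had a median log2 difference from Parental of −0.44 (IDH1R132H), −0.38 (IDH2R140Q), −0.36 (IDH2R140W) and −0.59 (IDH2R172K), and 19, 4, 16 and 12 of them had a higher difference than HIBADH.

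HIBCH (ENSG00000198130, chromosome 2, 190189735 to 190344193, minus strand) ranged from 31.1 to 58.1 TPM over the libraries and averaged 40.2 ± 6.18 (IDH1R132H), 42.1 ± 4.81 (IDH2R140Q), 50.1 ± 5.20 (IDH2R140W) and 39.3 ± 7.84 (IDH2R172K), against 52.7 ± 5.46 TPM in Parental. Neighbouring groups in the order of means all overlapped. HIBCH passed as lower in IDH2R172K (−0.43, limma adjusted p = 0.0373), a call lost under 8 of 17 alternatives, among them without IDH2R172K replicate 3 (−0.27, 0.174) and without Parental replicate 2 (−0.36, 0.115). In IDH1R132H it was −0.39 (limma adjusted p = 0.0505) and in IDH2R140Q −0.32 (0.101), and both passed after median-ratio scaling, at −0.57 (0.0118) and −0.56 (0.0139). HIBCH shares exon sequence with INPP1 on the opposite strand, which was 19.6 to 46.1 TPM. The ratio of HIBCH to HIBADH transcripts averaged 5.45 (IDH1R132H), 2.22 (IDH2R140Q), 4.61 (IDH2R140W) and 3.84 (IDH2R172K), against 3.15 in Parental. Its range was 3.78 to 7.05 in IDH1R132H and 2.77 to 4.62 in IDH2R172K, and both overlapped Parental at 2.59 to 3.91. IDH2R140Q (2.01 to 2.42) and IDH2R140W (4.08 to 5.55) did not overlap Parental, and this ratio was not tested.

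ACADSB, the short and branched-chain acyl-CoA dehydrogenase of isoleucine breakdown, was highest in IDH2R172K cells. ACADSB (ENSG00000196177, hg38 chromosome 10, 123008979 to 123058311, plus strand) was 17.6, 14.96 and 15.9 TPM in IDH1R132H, 18.3, 14.96 and 16.3 in IDH2R140Q, 18.3, 20.4 and 7.14 in IDH2R140W and 30.4, 31.6 and 30.04 in IDH2R172K, against 22.1, 16.3 and 21.6 TPM in Parental. The IDH2R172K libraries were above all others, and the other 4 groups overlapped. IDH2R140W replicate 3 was the lowest of all libraries. The difference between IDH2R172K and Parental was 0.61 (SE 0.264, 95% interval 0.04 to 1.17) and did not pass (limma adjusted p = 0.0843). Without Parental replicate 2 and IDH2R140W replicate 3 together it was 0.47 and passed (limma adjusted p = 0.00149), and ACADSB then also passed as lower in IDH1R132H (−0.41, 0.00326) and IDH2R140Q (−0.39, 0.00530). Without Parental replicate 2 alone the IDH2R172K difference was 0.47 and did not pass (limma adjusted p = 0.232). The difference between IDH2R140W and Parental was −0.48 (limma adjusted p = 0.226), and −0.04 without IDH2R140W replicate 3. Between edited lines, ACADSB was lower in IDH1R132H than in IDH2R172K, with a log2 difference of −0.89 (limma adjusted p = 0.0188), and so it was in IDH2R140Q (−0.86, 0.0233) and IDH2R140W (−1.08, 0.00647). The IDH1R132H call was lost without IDH1R132H replicate 2 or 3 or IDH2R172K replicate 2 (limma adjusted p = 0.0509 to 0.0614). The IDH2R140Q call was lost without IDH2R140Q replicate 2 or 3 or any 1 of the IDH2R172K libraries (0.0529 to 0.0747). Over all 17 alternatives the limma adjusted p was 3.42e-06 to 0.0614 for IDH1R132H and 4.62e-06 to 0.0747 for IDH2R140Q. The IDH2R140W difference was −0.64 without IDH2R140W replicate 3 and still passed (limma adjusted p = 0.00252). The 17 tested protein-coding genes within 2 Mb had a median log2 difference from Parental of 0.40 in IDH2R172K and of −0.04, −0.30 and −0.13 in IDH1R132H, IDH2R140Q and IDH2R140W.

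In leucine breakdown the subunits of methylcrotonyl-CoA carboxylase, the biotin-carrying alpha chain MCCC1 and the beta chain MCCC2, were lower in different lines. MCCC1 (ENSG00000078070, hg38 chromosome 3, 183015218 to 183116075, minus strand) was 76.2, 71.0 and 65.6 TPM in IDH1R132H, 63.0, 66.4 and 70.9 in IDH2R140Q, 43.0, 39.4 and 33.8 in IDH2R140W and 68.8, 57.5 and 54.9 in IDH2R172K, against 66.8, 61 and 59.0 TPM in Parental. IDH2R140W lay below every library of the other groups. MCCC1 fell by 0.68 in IDH2R140W (SE 0.104, limma adjusted p = 0.000287), a call that held under all 17 alternatives. IDH2R140W was also lower than IDH2R172K, by −0.63 (limma adjusted p = 0.000403), and IDH1R132H and IDH2R140Q exceeded IDH2R140W by 0.86 (2.09e-05) and 0.77 (7.41e-05). In the other 3 lines the difference from Parental was −0.05 to 0.18 and did not pass. The 26 tested protein-coding genes within 2 Mb had a median difference of −0.25 in IDH2R140W.

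MCCC2 (ENSG00000131844, hg38 chromosome 5, 71587288 to 71658704, plus strand) was 62.8, 68.4 and 63.8 TPM in IDH1R132H, 90.7, 89.3 and 88.0 in IDH2R140Q, 80.6, 79.5 and 66.6 in IDH2R140W and 84.7, 82.9 and 87.9 in IDH2R172K, against 89.4, 72.9 and 82.6 TPM in Parental. IDH1R132H lay below Parental with no overlap, and the IDH2 lines overlapped Parental. MCCC2 fell by 0.32 in IDH1R132H (SE 0.0856, limma adjusted p = 0.00776) and did not pass in any IDH2 line, where the differences were −0.11 to 0.13. MCCC1 over MCCC2 averaged 1.09 (IDH1R132H), 0.748 (IDH2R140Q), 0.513 (IDH2R140W) and 0.710 (IDH2R172K), against 0.766 in Parental. Both promoters held the E-box and CCAAT, and they are shown because these chains of 1 enzyme were lower in different lines. The stretches, free of annotated exons, are chr3:183099588-183099746 (minus strand, the first of 3 listed starts) and chr5:71587090-71587287 (plus strand), with the E-box and CCAAT on either strand in capitals.
MCCC1: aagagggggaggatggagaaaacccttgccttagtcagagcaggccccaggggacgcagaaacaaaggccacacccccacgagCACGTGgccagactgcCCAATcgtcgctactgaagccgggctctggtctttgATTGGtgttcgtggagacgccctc
MCCC2: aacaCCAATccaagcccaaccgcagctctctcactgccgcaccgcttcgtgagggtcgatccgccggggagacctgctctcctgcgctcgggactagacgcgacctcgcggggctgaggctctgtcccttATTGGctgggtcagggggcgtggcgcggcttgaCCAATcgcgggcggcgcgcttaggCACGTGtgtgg
Among the other genes searched only BCAT1 held CACGTG, at 1 of its 5 listed starts, and the promoters of HIBCH and ACADSB held none of the 3 motifs.

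The remaining genes of the pathway were taken from a list of 23, of which 22 were tested and HSD17B10 was listed at 0 in all libraries, on 2 rows. The list was chosen with results of these data known. Against Parental, 10 of the 22 were lower and 4 higher in IDH1R132H, beside 13.7% and 30.1% of all genes. The counts were 5 lower and 4 higher for IDH2R140Q (11.1% and 33.3% of all genes), 5 and 1 for IDH2R140W (10.7% and 13.3%), and 6 and 1 for IDH2R172K (13.5% and 25.5%). Their median difference was −0.24, −0.04, −0.19 and −0.27 in those lines, where the median of all genes was 0.16, 0.23, 0.03 and 0.13. Beside DLD, only SLC7A8 reached 2-fold relative to Parental. SLC7A8 carries large neutral amino acids across the plasma membrane. It was 4.38, 3.94 and 4.86 TPM in IDH1R132H and 3.97, 3.66 and 4.44 in IDH2R140Q, and averaged 14.97 ± 2.77 in IDH2R140W and 9.50 ± 1.21 in IDH2R172K, against 16.4, 9.28 and 12.9 TPM in Parental. No library of IDH1R132H or IDH2R140Q reached the lowest Parental one. SLC7A8 fell by 1.33 in IDH1R132H (SE 0.184, limma adjusted p = 5.23e-05) and by 1.43 in IDH2R140Q (3.16e-05), and did not pass in IDH2R140W and IDH2R172K.

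Some genes of the list outside that rule are named here after their values were seen. SLC25A44, the mitochondrial carrier of branched-chain amino acids, was higher in all 4 lines, by 0.96 (IDH1R132H), 0.54 (IDH2R140Q), 0.52 (IDH2R140W) and 0.57 (IDH2R172K), with limma adjusted p of 9.26e-05 to 0.0162. The IDH2R140W call was lost without IDH2R140W replicate 2 (0.40, limma adjusted p = 0.0810) or Parental replicate 2 (0.43, 0.0535). With only the compared groups in the fit it was also lost (0.52, limma adjusted p = 0.0978). After quantile normalisation the IDH2R140Q call of SLC25A44 was lost (0.26, limma adjusted p = 0.0847). PCCA, the alpha chain of propionyl-CoA carboxylase, was lower in all 4, by −0.67, −0.39, −0.42 and −0.67 (limma adjusted p = 0.00115 to 0.0372). The IDH2R140Q and IDH2R140W calls of PCCA were lost without Parental replicate 2 or 3 (limma adjusted p = 0.0665 to 0.0946), and without IDH2R140Q replicate 2 or 3 or IDH2R140W replicate 1 or 2 (0.0748 to 0.124). The plasma membrane exchanger of leucine, SLC7A5 with its partner chain SLC3A2, was higher in IDH1R132H, by 0.70 and 0.63, and SLC3A2 was lower in IDH2R172K, by −0.49. ACAT1, the thiolase that ends isoleucine breakdown, was lower in IDH1R132H (−0.87), IDH2R140W (−0.73) and IDH2R172K (−0.60). MCEE, which acts after propionyl-CoA carboxylase, was lower in IDH2R140W, at −0.96.

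**Figure D4:**
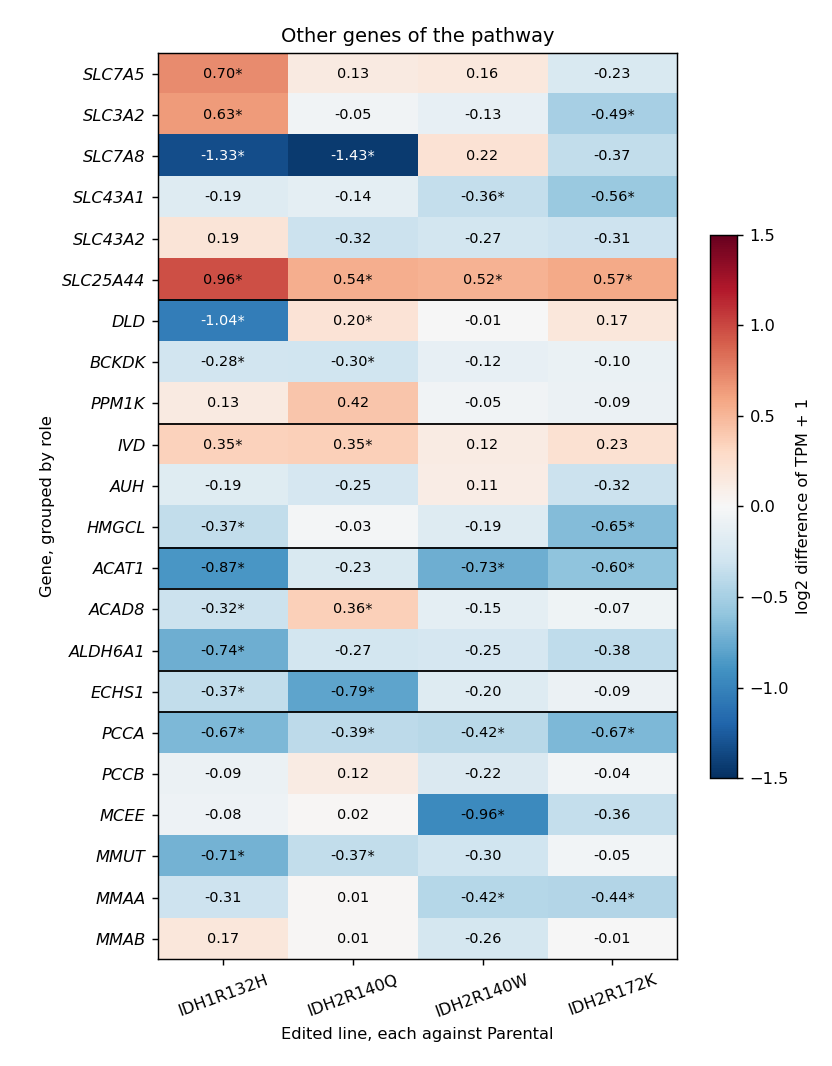
Log2 difference of TPM + 1 from Parental for the 22 tested genes of the rest of the pathway (rows, grouped by role) in each edited line (columns), with the value in each cell and an asterisk where the limma adjusted p was under 0.05. SLC25A44 is higher and PCCA lower in all 4 columns, and DLD at −1.04 and SLC7A8 at −1.33 and −1.43 are the cells past 2-fold.

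Set directly against the mean of the 3 IDH2 lines, IDH1R132H was higher in 3 of the 10 genes (BCAT1, BCKDHA and MCCC1) and lower in 4 (BCAT2, BCKDHB, HIBADH and MCCC2), where 18.8% and 14% of all tested genes were higher and lower. The differences were 0.62, 0.35 and 0.39 for the higher genes and −0.58, −0.37, −0.70 and −0.35 for the lower ones, with limma adjusted p from 1.91e-06 to 0.0163. Of these genes, only BCAT2 and HIBADH also passed against each IDH2 line on its own. MCCC1 passed only against IDH2R140W (0.86, limma adjusted p = 2.09e-05), where it was lowest. BCAT1 did not pass against IDH2R140Q, BCKDHA and MCCC2 did not against IDH2R140W, and BCKDHB did not against IDH2R172K. The BCAT1 call was lost without any 1 of the IDH1R132H libraries and the BCKDHA call without IDH1R132H replicate 1 (limma adjusted p = 0.0518) or 3 (0.0590), and ACADSB passed as lower without IDH2R140W replicate 3 (−0.39, 0.00763). The number of genes that passed was 5 to 8 with single libraries left out. Among the 6 pairs of edited lines, the number of genes that passed was 5 between IDH1R132H and IDH2R140Q (28.5% of all genes), 5 between IDH1R132H and IDH2R140W (35.6%) and 6 between IDH1R132H and IDH2R172K (32.5%). Within the IDH2 lines it was 5 between IDH2R140Q and IDH2R140W (32.9%), 4 between IDH2R140Q and IDH2R172K (31%) and 3 between IDH2R140W and IDH2R172K (31.2%). The count between IDH1R132H and IDH2R140W was 2 without IDH1R132H replicate 3, that between IDH2R140Q and IDH2R140W was 3 without IDH2R140Q replicate 1, and that between IDH2R140Q and IDH2R172K was 1 or 2 with any of their libraries left out. Between IDH2R140W and IDH2R172K it was 5 after median-ratio scaling.

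The genes with profiles most like those of the most variable members were found by the root mean square difference of centred log2(TPM + 1) over the 15 libraries. HIBADH, whose group means spanned 1.22 on the log2 scale, was closest to SMC6 (0.177), SMIM10 (0.183) and SPATC1L (0.186). SMC6, a subunit of the SMC5/6 chromosome complex, averaged 19.2 TPM (IDH1R132H), 43.1 (IDH2R140Q), 27.4 (IDH2R140W) and 22.1 (IDH2R172K), against 34.9 TPM in Parental. ACADSB, whose group means spanned 1.08, was closest to TACC2 (0.196), GNAQ (0.205) and PDDC1 (0.218). That span ran from IDH2R140W to IDH2R172K, whose difference was −0.64 without IDH2R140W replicate 3. IDH1R132H, the next lowest, differed from IDH2R172K by −0.89, while BCAT2 spanned 1.01. The choice of ACADSB here thus rests on that library, and nearest profiles without it were not sought. TACC2 averaged 14.98 TPM (IDH1R132H), 14.2 (IDH2R140Q), 14.3 (IDH2R140W) and 27.02 (IDH2R172K), against 16.5 TPM in Parental. TACC2 lies on chromosome 10 at 121989174 to 122254545 and ACADSB starts at 123008979 on the same chromosome, within the 2 Mb window used above, while SMC6 is on chromosome 2 and GNAQ on chromosome 9.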

How the data were processed

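Poly(A) RNA of TF-1 cells was made into directional libraries, per the labels' protocols. STAR 2.7.3, RSEM, HTSeq, DESeq2 and the build hg38 are listed, per the submitters' processing notes, without saying which made the table. The authors deposited TPM per gene symbol for 15 libraries, with column sums of 999999 to 1000001. TPM holds no read numbers, so the depth, and with it the counting error, is unknown. Because each library sums to the same total, strong shifts of abundant transcripts alter the TPM of the rest.

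Of 63568 rows, 6 with date-like symbols found more than 1 time were left out and rows with the same symbol were summed (2985 symbols, 224 of them tested), which gave 56624 symbols. Of these, 14881 had at least 1 TPM in 3 libraries. limma 3.58.1 (R 4.3.3) with an intensity trend was fitted to log2(TPM + 1) of all 15 libraries, with 1 mean per group, and 12 comparisons were drawn from it with Benjamini-Hochberg adjustment over all tested genes. The ratio of the transaminases was tested with an exact permutation test. Scripts were tested on simulated data. The members and lists were chosen with earlier results of these data known. All 10 members are named. Of the other pathway genes, those at least 2-fold from Parental with an adjusted p under 0.05, and DLD, BCKDK and PPM1K, were to be named, and for the 2 most variable members the 3 genes with the nearest profiles. Alternatives were other pseudocounts, filters, scalings, trend and rows, the replicate block, only the compared groups, and leaving out libraries. Gene positions are from GENCODE 29 (hg38) and promoter letters from RefSeq. Some of the marker genes are not reported here.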

Additional observations from a re-analysis of the deposited data

Results flagged for a closer look

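The 4 edited lines shared their medium, and differences between them were tested directly. Of 60 such differences of the 10 genes in 6 pairs of lines, 28 passed, and between 28.5% and 35.6% of all tested genes passed in these pairs. All values are log2 differences with the limma adjusted p, and the pairs share libraries.

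Between IDH1R132H and IDH2R140Q, BCKDHA was higher in IDH1R132H, by 0.49 (limma adjusted p = 0.00517). BCAT2 (−0.475, 0.000106), BCKDHB (−0.55, 0.000572), HIBADH (−1.22, 1.38e-05) and MCCC2 (−0.45, 0.00112) were lower there. Each of these passed under every alternative that was run.

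Between IDH1R132H and IDH2R140W, BCAT1 (0.70, limma adjusted p = 0.0234) and MCCC1 (0.86, 2.09e-05) were higher in IDH1R132H. BCAT2 (−0.77, 7.59e-07), BCKDHB (−0.32, 0.0174) and HIBADH (−0.48, 0.0135) were lower. BCAT2 and MCCC1 passed under every alternative. BCAT1 was lost without any 1 of the IDH1R132H libraries or IDH2R140W replicate 3 (limma adjusted p = 0.0523 to 0.104), BCKDHB without IDH1R132H replicate 3 (0.0773) or IDH2R140W replicate 1 (0.0532), and HIBADH without IDH1R132H replicate 3 (0.0668).

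Between IDH1R132H and IDH2R172K, BCAT1 (0.92, limma adjusted p = 0.00513) and BCKDHA (0.42, 0.0127) were higher in IDH1R132H. BCAT2 (−0.51, 4.77e-05), HIBADH (−0.40, 0.0340), ACADSB (−0.89, 0.0188) and MCCC2 (−0.38, 0.00324) were lower. BCAT1, BCAT2 and MCCC2 passed under every alternative. BCKDHA was lost without IDH2R172K replicate 3 (limma adjusted p = 0.0546), HIBADH without IDH1R132H replicate 2 or 3 or any 1 of the IDH2R172K libraries (0.0505 to 0.144), and ACADSB without IDH1R132H replicate 2 or 3 or IDH2R172K replicate 2 (0.0509 to 0.0614).

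Among the IDH2 lines, HIBADH (0.74, limma adjusted p = 0.000926), MCCC1 (0.77, 7.41e-05) and MCCC2 (0.24, 0.0414) were higher in IDH2R140Q than in IDH2R140W, while BCAT2 (−0.29, 0.00411) and BCKDHA (−0.35, 0.0330) were lower. Against IDH2R172K, IDH2R140Q was higher in BCAT1 (0.68, limma adjusted p = 0.0287), BCKDHB (0.33, 0.0184) and HIBADH (0.82, 0.000363) and lower in ACADSB (−0.86, 0.0233). IDH2R140W was higher than IDH2R172K in BCAT2 (0.26, limma adjusted p = 0.00804) and lower in ACADSB (−1.08, 0.00647) and MCCC1 (−0.63, 0.000403). Of these 12, BCAT2, HIBADH and MCCC1 between IDH2R140Q and IDH2R140W, HIBADH between IDH2R140Q and IDH2R172K, and ACADSB and MCCC1 between IDH2R140W and IDH2R172K passed under every alternative.

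Of the other 6, MCCC2 between IDH2R140Q and IDH2R140W was lost under 10 of 17 alternatives: it was 0.157 without IDH2R140W replicate 3 (limma adjusted p = 0.175), 0.046 after median-ratio scaling (0.574), and was also lost without any 1 of the IDH2R140Q libraries. BCKDHA between these lines was lost without IDH2R140Q or IDH2R140W replicate 1 or 2 (limma adjusted p = 0.0823 to 0.104). Between IDH2R140Q and IDH2R172K, BCAT1 was lost without any 1 of their libraries (limma adjusted p = 0.0501 to 0.0896). Over all 17 alternatives the limma adjusted p of BCAT1 was 2.54e-06 to 0.0896. BCKDHB was lost there without IDH2R140Q replicate 1 or 3 or IDH2R172K replicate 1 (limma adjusted p = 0.0563 to 0.0881), after median-ratio scaling (0.132) and after quantile normalisation (0.290). ACADSB was lost without IDH2R140Q replicate 2 or 3 or any 1 of the IDH2R172K libraries (limma adjusted p = 0.0529 to 0.0747). BCAT2 between IDH2R140W and IDH2R172K was lost with only the compared groups in the fit (limma adjusted p = 0.0589).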

How the results depend on the processing

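Of the 15 differences from Parental that passed among the 10 genes, 11 passed under every alternative, 4 were lost under at least 1 and 0 changed sign. The 4 were BCAT1 in IDH1R132H, BCAT2 in IDH2R140W, and BCKDHB and HIBCH in IDH2R172K. Of 36 pathway differences that passed, 20 did so under every alternative and 1 changed sign (DLD in IDH2R140Q, −0.040 after median-ratio scaling). Of 28 differences between edited lines, 16 passed under every alternative. Over all results, 2226 of 2498 alternative values kept their direction and side of the threshold or stayed within the limits set for counts. The alternative values of pathway genes and of differences between lines were added after the data were seen. The causes of these changes were not tested.

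The count of genes that passed became 7 for the mean of the edited lines against Parental after median-ratio scaling and after quantile normalisation, and 5 between IDH2R140W and IDH2R172K under both scalings and without Parental replicate 2 and IDH2R140W replicate 3, where it was 6 between IDH1R132H and IDH2R140W. With no filter it was 3 between IDH2R140Q and IDH2R140W and 2 between IDH2R140Q and IDH2R172K. With single libraries left out it was 3 to 4 for IDH2R172K against Parental, 2 to 5 for the mean of the edited lines, 2 to 5 between IDH1R132H and IDH2R140W, 3 to 5 between IDH2R140Q and IDH2R140W and 1 to 2 between IDH2R140Q and IDH2R172K.

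Differences that changed sign, other than that of DLD, had not passed. After median-ratio scaling they were DBT in IDH1R132H (−0.032), BCKDHB (−0.18), HIBADH (−0.077), MCCC1 (−0.14) and MCCC2 (−0.11) in IDH2R140Q, MCCC2 in IDH2R172K (−0.079), and BCAT1 (−0.044) and DBT (−0.048) in the mean of the edited lines. After quantile normalisation the same differences were −0.10, −0.24, −0.12, −0.066, −0.033, −0.075, −0.024 and −0.12. Without Parental replicate 2 and IDH2R140W replicate 3, HIBCH in IDH2R140W was 0.071 (against −0.15 at the lowest with 1 library left out), MCCC2 in IDH2R172K −0.01, and BCAT1 and DBT in the mean of the edited lines −0.10 and −0.0048. With single libraries left out the ranges against Parental were −0.20 to 0.041 for BCKDHA and −0.037 to 0.18 for DBT in IDH1R132H, −0.0053 to 0.12 for BCKDHB in IDH2R140Q and −0.40 to 0.14 for BCAT1 in IDH2R140W. In IDH2R172K they were −0.11 to 0.043 for DBT, −0.14 to 0.016 for MCCC1 and −0.013 to 0.13 for MCCC2. For the mean of the edited lines they were −0.17 to 0.27 for BCAT1, −0.025 to 0.13 for DBT, −0.23 to 0.0087 for ACADSB and −0.14 to 0.0092 for MCCC2. Between IDH1R132H and the mean of the IDH2 lines HIBCH was −0.22 to 0.0034. The log2 difference of the BCAT1 to BCAT2 ratio from Parental was −0.20 to 0.40 in IDH2R140W and −0.16 to 0.35 in IDH2R172K.

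The replicate numbers did not pair the libraries: deviations from group means correlated at −0.285 to 0.223 over 30 same-number pairs, and 1 pair was above 0.1. With the replicate block, the genes that passed against Parental numbered 4 (IDH1R132H), 2 (IDH2R140Q), 3 (IDH2R140W) and 4 (IDH2R172K), and BCAT1 in IDH1R132H (limma adjusted p = 0.0631) and BCKDHB in IDH2R172K (0.0572) were among the calls lost. Depth is unknown in TPM, so no limit from counting can be given.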
